A study of Mus musculus with 38 samples.

Results

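The transcriptome of mouse embryonic stem cells grown for 8 days in the 2-inhibitor medium 2i/L was compared with the transcriptomes of cells grown in the same basal medium with only one of the inhibitors. All 3 media held N2B27, a serum-free basal medium, and the cytokine LIF. MEKi/L also held a MEK inhibitor at 1 µM, GSK3i/L held the GSK3 inhibitor CHIR99021 at 3 µM, and 2i/L held both. Each group had 3 libraries, so 9 of the 38 samples of the series entered the contrast. The contrast was the mean of the 2i/L libraries minus the equal-weight mean of the MEKi/L and GSK3i/L group means. Within it, genes were singled out whose 3 values in 2i/L lay above, or below, all 6 values of the single-inhibitor libraries. Of 25965 genes in the table, 2087 lay above and 1143 below. Of the 14980 genes that reached 0.5 RPM, the reads of a gene scaled to an equal library total, in at least 3 libraries, 2050 (13.7%) lay above and 838 (5.59%) lay below. Which direction held more genes depended on the scaling, since centring each library on its median gene gave 997 above and 1570 below.

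The cells were the XY line E14, of 129/Ola origin, plated without feeder cells on gelatin in serum with LIF (S/L) and switched the next day. RNA was also sequenced from 3 libraries kept in S/L to day 8 and from 2 libraries kept in GSK3i/L to day 24, and these 5 libraries serve as a further reference. The other 24 samples of the series are bisulfite sequencing libraries and were not used here. The RNA libraries contain no N2B27 and LIF without an inhibitor. A 2i/L level that is the sum of both inhibitors' separate effects therefore cannot be told apart from one that needs both together. The labels call the libraries biological triplicates without naming separate cultures. The p-values therefore rest on the spread between these libraries, which may be technical.

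MEK is the kinase that activates ERK, and signalling from FGF4 through ERK primes embryonic stem cells for differentiation. GSK3 marks beta-catenin for degradation, and its inhibition releases beta-catenin, which relieves repression by TCF7L1 at pluripotency genes and activates Wnt target genes. With LIF, which acts through STAT3, both inhibitors hold the cells in the naive state of the early epiblast, a state known for its low DNA methylation.

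Embryonic stem cell markers were abundant in every library, with the summed level of the 10 markers between 5511 and 7368 RPM in the 9 libraries. Of 12 fibroblast and feeder markers, Dcn, Lum and Twist2 were listed at 0 in all 2i/L and MEKi/L libraries. The sum of the fibroblast markers was 18.1 to 20.7 RPM in 2i/L, 6.54 to 11.0 RPM in MEKi/L and 137 to 282 RPM in GSK3i/L. Plain RPM columns were scaled to totals of 10551735 to 15757820 reads, while the sorted values of the GSK3i/L and S/L columns at 8 days were nearly the same in all 6 libraries. Those 6 columns thus appear matched to one shared distribution, a step that no label states, so their depth is unknown and the contrast crosses both kinds of column. One more property moved with the groups. The long-minus-short measure is the mean log2 level of 36 long transcripts minus that of 40 short ones. It rests on levels of these listed genes alone, and what moves it was not tested. The measure was 0.60 ± 0.13 (SD, n = 3) in 2i/L. It was -0.83 ± 1.40 (SD, n = 3) in MEKi/L and -1.22 ± 1.57 (SD, n = 3) in GSK3i/L. The first library of each single-inhibitor group stood apart, at 0.77 and 0.47 beside a 2i/L range of 0.45 to 0.70, while the other 4 lay between -2.62 and -1.47.

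The long and short lists, whose members make up the measure, show the size of this shift. With the measure as a covariate their differences shrink by construction. The smaller values of these lists and their members are therefore no separate result. Of 36 tested long transcripts, 16 were higher in 2i/L at an adjusted p under 0.05 by limma (15.9% of all tested genes) and none was lower, with a median log2 difference of 0.87 that was 0.12 once the measure was a covariate. Of 40 short transcripts, 4 were lower (8.25% of all tested genes) and none was higher, with medians of -0.77 and 0.11. Nuclear genes of the respiratory chain had 5 of 40 lower and medians of -0.74 and 0.11. Members that this list may share with the short list were not taken out, so its likeness to that list is no separate support. Ubr4, a very large ubiquitin ligase, stood at 1.34 and at 0.26 with the measure, and the short Snrpg, a spliceosome subunit, at -1.49 and -0.25. The calls of Ubr4 and Snrpg were also lost when any one 2i/L library, MEKi/L library 2 or 3 or GSK3i/L library 2 was left out, with adjusted p of 0.051 to 0.099 and 0.059 to 0.11. Differences of named genes are therefore given both ways where the measure took them past either limit of the test or moved them by over 1.5 times.

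By limma, 740 genes were at least 2-fold higher in 2i/L than in the mean of the single inhibitors at a Benjamini-Hochberg adjusted p under 0.05 (4.94% of tested genes), and 989 were at least 2-fold lower (6.6%). Of these, 512 of the higher genes also lay above all 6 single-inhibitor values (3.42% of tested genes), and 539 of the lower genes lay below all 6 (3.6%). Genes that met both criteria are called the joint genes here. The same values entered both criteria, so neither is independent support of the other. The joint genes that were higher had a median difference of 1.45 on the log2 scale (1.00 to 5.33). Those that were lower had a median of -1.92 (-5.02 to -1.0), and all tested genes had a median of 0.14. The median 2i/L level was 25.6 RPM for the higher and 0.548 RPM for the lower joint genes. Many folds of the lower genes thus rest on few 2i/L reads. On log2(RPM + 0.5), 476 of the 512 and 362 of the 539 were still called. In all, 11.5% of tested genes were called. Relative to each inhibitor separately, 296 of the 512 were at least 2-fold above both, and 425 of the 539 were at least 2-fold below both. Among the 512, 27 passed the filter on low values through their 2i/L libraries alone.

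With the long-minus-short measure as a covariate, 437 genes were called higher and 712 lower. All of these joint genes kept their sign in that fit, and 272 of the 512 and 369 of the 539 were still called. When MEKi/L and GSK3i/L were each represented by their first library alone, 269 and 335 were called. Centring each library on its median gene gave 443 higher and 1412 lower calls, and trimmed mean scaling gave 492 and 1236, so the share of calls that were higher moved from 42.8% to 23.9% and 28.5%. Those scalings moved the median of all genes from 0.14 to -0.08 and -0.03. Calls in the lower direction numbered 627 without the first 2i/L library and 637 without the second, beside 664 and 532 in the higher direction. The count of tested genes above all 6 single-inhibitor values was 3399 without the first MEKi/L library, which then leaves 5 values to exceed. At the edge of the rule, the lowest 2i/L value of Cidea lay 0.0011 log2 units above the highest single-inhibitor value, and the same gap was -0.0016 for Dst, just outside the rule. On the lower side, the gap was -0.0054 for H3f3a, just outside.

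The single-inhibitor comparisons behind the average were unequal in size. Against MEKi/L, 479 genes were at least 2-fold higher in 2i/L (3.2% of tested genes) and 793 lower (5.29%), together 8.49%. Against GSK3i/L at 8 days, 1474 were higher (9.84%) and 987 lower (6.59%), together 16.4%. With centring, the counts against GSK3i/L were 844 higher and 1577 lower, and with trimmed mean scaling 982 and 1303, so the larger direction turned. The difference between the counts was not tested. The MEKi/L counts were 868 and 1323 without MEKi/L library 1, the lower count was 466 without library 2, and the higher count was 297 without library 3. The lower count against GSK3i/L was 1498 without GSK3i/L library 1.

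**Figure D1:**
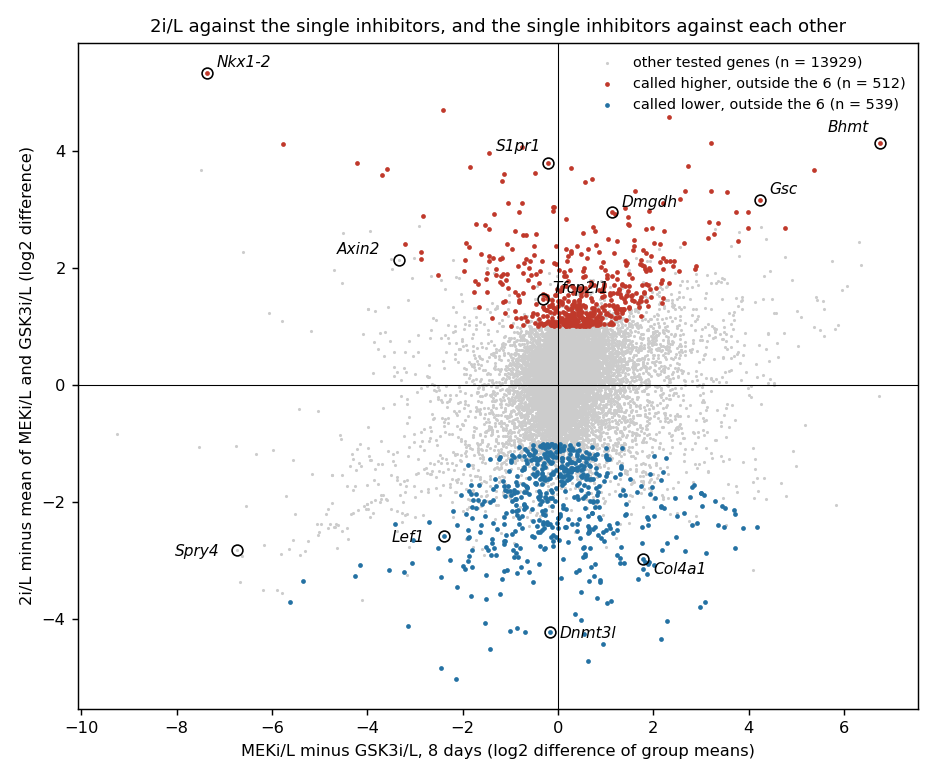
Each point is a tested gene, placed by the log2 difference between MEKi/L and GSK3i/L (horizontal axis) and by the log2 difference between 2i/L and the mean of both (vertical axis). Red points are the 512 higher and blue points the 539 lower joint genes; Axin2 and Spry4 differ strongly between the inhibitors and are grey because their 2i/L values fall among the 6 single-inhibitor values, whereas Dnmt3l and S1pr1 lie near 0 on the horizontal axis and far from 0 on the vertical axis.

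The plot of the 2 differences also holds genes that follow one inhibitor. Axin2, a direct beta-catenin target and Wnt feedback inhibitor, was at 57.0, 76.3 and 67.7 RPM in 2i/L, 6.28, 3.60 and 4.74 RPM in MEKi/L and 59.2, 51.4 and 36.9 RPM in GSK3i/L. The 2i/L libraries were above MEKi/L and overlapped GSK3i/L, with a difference of 3.81 from MEKi/L (adjusted p = 7.2e-07) and 0.46 from GSK3i/L (adjusted p = 0.15). Spry4, a feedback inhibitor of ERK signalling, was at 2.13, 0.474 and 0.397 RPM in 2i/L and 1.21, 0.576 and 0.190 RPM in MEKi/L, against 91.6, 35.3 and 49.1 RPM in GSK3i/L. Both genes were called in the averaged contrast, at 2.14 for Axin2 and -2.83 for Spry4. In 2i/L, however, Axin2 overlapped GSK3i/L and Spry4 overlapped MEKi/L. In all, 228 genes called higher and 450 called lower had 2i/L values that were not outside the 6.

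Among the higher joint genes stood enzymes that remake methionine from homocysteine, pass homocysteine on to cysteine or act on products of these steps. Dmgdh, the mitochondrial dehydrogenase of dimethylglycine, was at 99.1, 96.0 and 89.6 RPM in 2i/L. It was at 18.3, 18.1 and 18.5 RPM in MEKi/L and at 8.29, 8.38 and 8.15 RPM in GSK3i/L, and in S/L it was at 0.554, 0.925 and 0.517 RPM. Its levels were tightly grouped and ordered S/L, GSK3i/L, MEKi/L, 2i/L with no overlap, and the contrast was 2.95 ± 0.18 (SE, n = 3 libraries a group, adjusted p = 6.6e-07 by limma). Bhmt2, which methylates homocysteine from S-methylmethionine, was at 38.3, 36.0 and 35.4 RPM in 2i/L, 7.68, 10.9 and 9.29 RPM in MEKi/L and 3.24, 4.16 and 2.63 RPM in GSK3i/L. The contrast for Bhmt2 was 2.73 ± 0.34 (SE, adjusted p = 1.4e-04). Bhmt, which uses betaine as the methyl donor for homocysteine and so produces the dimethylglycine that DMGDH degrades, was at 24.3, 18.5 and 18.7 RPM in 2i/L and 10.9, 14.5 and 11.2 RPM in MEKi/L. In GSK3i/L it had levels of 0.0906, 0 and 0.182 RPM, below the value of 3 reads, so Bhmt lay above all 6 values while its difference from MEKi/L alone was 0.75 (adjusted p = 0.25).

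Bhmt, Bhmt2 and Dmgdh are neighbours on chromosome 13 of GRCm38. Bhmt spans chr13:93616891-93637961 and Bhmt2 chr13:93655720-93674302, both on the minus strand, and Dmgdh spans chr13:93674433-93752831 on the plus strand, so that Bhmt2 and Dmgdh start 130 bases apart and point away from each other. Dmgdh overlaps the antisense model AW495222, and Bhmt overlaps Gm15622, both also joint genes. Whether reads were counted by strand is not stated in the sources used. The windows from 250 bases before to 50 after the start of Dmgdh, which also covers the start of Bhmt2, and of Bhmt are printed because both genes lead the group, from RefSeq on GRCm38.p6. Capitals mark matches, on either strand, to 5 motifs that were searched: TCAAAG (TCF/LEF), AAGGTCA (ESRRB), TTCNNNGAA (STAT), GGGCGG (GC box, where its reverse complement CCGCCC also counts) and CACGTG (E-box).
Dmgdh, chr13:93674186-93674485, plus strand: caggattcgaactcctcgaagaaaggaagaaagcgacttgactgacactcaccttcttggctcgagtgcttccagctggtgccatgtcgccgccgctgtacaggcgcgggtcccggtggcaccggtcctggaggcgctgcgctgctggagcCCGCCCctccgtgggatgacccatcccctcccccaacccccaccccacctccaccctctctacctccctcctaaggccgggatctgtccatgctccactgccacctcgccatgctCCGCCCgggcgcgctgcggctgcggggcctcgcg
Bhmt, chr13:93637709-93638008, minus strand: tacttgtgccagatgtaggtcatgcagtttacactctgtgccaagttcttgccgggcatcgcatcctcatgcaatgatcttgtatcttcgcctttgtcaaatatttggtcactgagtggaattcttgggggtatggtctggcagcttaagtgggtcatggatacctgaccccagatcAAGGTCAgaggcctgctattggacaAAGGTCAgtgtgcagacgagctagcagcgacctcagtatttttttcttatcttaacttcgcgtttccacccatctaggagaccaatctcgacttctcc
The Dmgdh window held 25 CG dinucleotides and 2 GC boxes, and the Bhmt window 8 CG dinucleotides and 2 copies of the ESRRB motif. Of all 32851 promoter windows in the table, 35.7% held a GC box and 4.72% the ESRRB motif. A GC box was in 61.3% of windows of tested genes, 62.9% of those of the higher and 54.8% of those of the lower joint genes. Among windows of the joint genes matched by symbol, 2.85% of those for the higher genes (349 of 510 symbols) and 3.44% of those for the lower genes (353 of 539) held the ESRRB motif, beside 3.3% for tested genes. A match describes letters in the window and not a bound site.

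Of 20 tested members of the betaine and methionine cycle list, 7 were higher (15.9% of all tested genes were higher at this p) and 1 was lower (8.25%), at an adjusted p under 0.05 with no minimum fold, the rule used for every list here. Those shares of all tested genes are the background for the averaged counts of every list. The list's median difference was 0.34, or 0.14 with the long-minus-short measure, 0.12 with centring and 0.17 with trimmed mean scaling. Beside the 3 neighbours, Cbs, which condenses homocysteine with serine, was at 167, 235 and 186 RPM in 2i/L, 51.2, 46.5 and 37.2 RPM in MEKi/L and 74.9, 84.2 and 36.9 RPM in GSK3i/L (1.89 ± 0.24, SE, adjusted p = 1.9e-04). Mtr, the folate-dependent methionine synthase, was a joint gene at 1.05 (adjusted p = 0.0037). With the long-minus-short measure in the fit, Mtr stood at 0.55. Cdo1, which oxidises cysteine and was no list member, was at 56.6, 65.8 and 71.8 RPM in 2i/L, 11.0, 13.7 and 12 RPM in MEKi/L and 9.27, 23.6 and 9.19 RPM in GSK3i/L. Its contrast was 2.38 ± 0.26 (SE, adjusted p = 5.7e-05).

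The 12 higher joint genes with the widest separation also included receptors, channels and structural proteins with low levels in serum. S1pr1, a receptor for the lipid sphingosine-1-phosphate, was at 8.61, 11.5 and 11.8 RPM in 2i/L, 0.444, 0.935 and 0.853 RPM in MEKi/L and 0.597, 1.24 and 0.740 RPM in GSK3i/L. It was nearly equal in both single-inhibitor groups and far above them in 2i/L (3.79 ± 0.35, SE, adjusted p = 1.7e-05). Plagl1, an imprinted zinc finger transcription factor, was at 12.3, 13.4 and 15.9 RPM in 2i/L, 1.78, 1.44 and 1.42 RPM in MEKi/L and 1.20, 1.49 and 0.461 RPM in GSK3i/L (3.53 ± 0.49, SE, adjusted p = 2.9e-04). Pdzrn3, a ubiquitin ligase with PDZ domains, was at 12.9, 12.8 and 14.6 RPM in 2i/L and at or below 1.66 RPM in the 6 single-inhibitor libraries (3.97 ± 0.30, SE, adjusted p = 3.8e-06). Mal, a proteolipid of lipid rafts, was at 23.3, 26.2 and 32.1 RPM in 2i/L, between 3.03 and 6.04 RPM in MEKi/L and between 0.324 and 0.660 RPM in GSK3i/L. Serpinb6b, an intracellular protease inhibitor, averaged 8.02 RPM in 2i/L, 0.165 RPM in MEKi/L, which is below the value of 3 reads, and 0.744 RPM in GSK3i/L. Kcnd3, a voltage-gated potassium channel subunit, averaged 7.04 RPM in 2i/L, 0.667 RPM in MEKi/L and 0.109 RPM in GSK3i/L, the last again below 3 reads. The remaining leaders were Tnni1 (slow skeletal troponin I, 3.62), Ccbe1 (a secreted factor of lymphatic growth, 3.48), Acpp (prostatic acid phosphatase, 3.32) and Cttnbp2 (a cortactin-binding protein, 3.11). Their 2i/L libraries lay between 8.46 and 18.4 RPM.

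**Figure D2:**
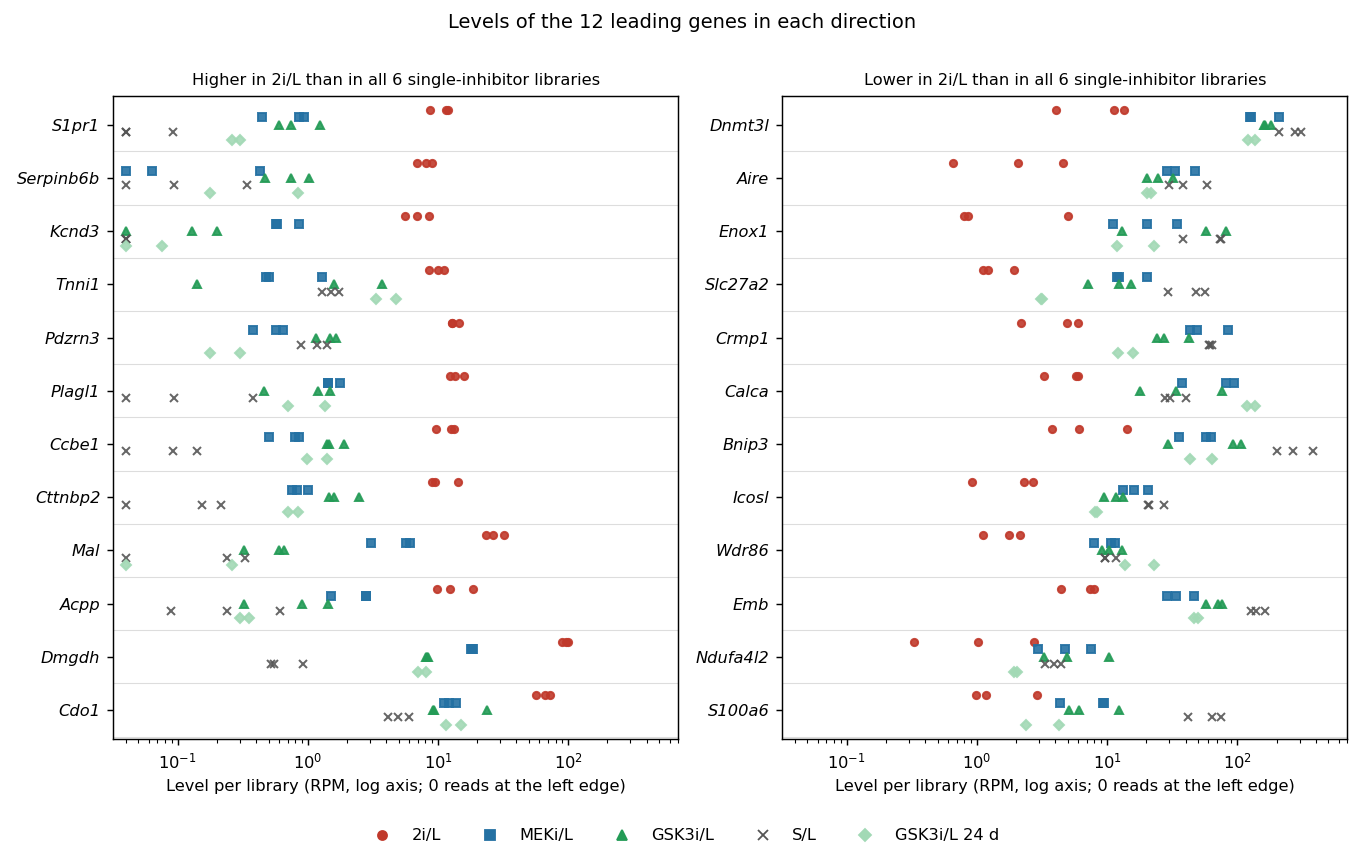
RPM of the 12 leading genes in each direction in every library on a log axis, with 0 reads drawn at the left edge. In each row the 3 red circles of 2i/L stand apart from the 6 blue squares and green triangles of the single inhibitors, which is how the genes were chosen; the crosses of S/L lie beyond the single inhibitors for Dmgdh, Emb, Bnip3 and S100a6 and overlap them for Tnni1, Pdzrn3, Wdr86 and Calca.

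In the lower direction the leading gene was Dnmt3l, the catalytically inactive partner that stimulates the de novo DNA methyltransferases. It was at 13.6, 11.3 and 4.03 RPM in 2i/L, 210, 126 and 127 RPM in MEKi/L, 182, 164 and 160 RPM in GSK3i/L and 208, 277 and 307 RPM in S/L. The first MEKi/L library overlapped the serum libraries, and 2i/L lay below every other library (-4.22 ± 0.31, SE, adjusted p = 3.4e-06). Relative to each inhibitor the difference was -4.13 from MEKi/L (adjusted p = 7.6e-06) and -4.31 from GSK3i/L (adjusted p = 3.1e-06). Its neighbours on chromosome 10 fell with it. Aire, the autoimmune regulator of thymic self-antigen expression, was at 4.57, 2.05 and 0.661 RPM in 2i/L against 28.9 to 47.1 RPM in MEKi/L and 20.1 to 32.3 RPM in GSK3i/L (-4.03 ± 0.43, SE, adjusted p = 4.7e-05). Icosl, the ligand of the T-cell costimulator ICOS, was at 2.29, 2.69 and 0.926 RPM in 2i/L against 9.49 to 20.8 RPM in the 6 (-2.93 ± 0.28, SE, adjusted p = 2.3e-05). Aire (chr10:78030022-78043610, minus strand) and Dnmt3l (chr10:78041947-78063622, plus strand) overlap by 1664 bases at their starts, so without a stated strand rule their reads there cannot be told apart. Icosl (chr10:78069360-78079525, plus strand) begins 5737 bases after the end of Dnmt3l and overlaps neither.

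The promoter window of Dnmt3l is printed because this gene leads the lower group, and that of Col4a1 because it heads the matrix genes described further on and shares its start with Col4a2. Capitals mark matches to the same 5 motifs.
Dnmt3l, chr10:78042037-78042336, plus strand: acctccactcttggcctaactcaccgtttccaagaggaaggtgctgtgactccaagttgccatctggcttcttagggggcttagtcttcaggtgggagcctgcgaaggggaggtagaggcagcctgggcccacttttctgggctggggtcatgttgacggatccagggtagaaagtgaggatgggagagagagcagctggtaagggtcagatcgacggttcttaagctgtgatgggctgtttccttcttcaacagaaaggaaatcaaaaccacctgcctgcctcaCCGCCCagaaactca
Col4a1, chr8:11312777-11313076, minus strand: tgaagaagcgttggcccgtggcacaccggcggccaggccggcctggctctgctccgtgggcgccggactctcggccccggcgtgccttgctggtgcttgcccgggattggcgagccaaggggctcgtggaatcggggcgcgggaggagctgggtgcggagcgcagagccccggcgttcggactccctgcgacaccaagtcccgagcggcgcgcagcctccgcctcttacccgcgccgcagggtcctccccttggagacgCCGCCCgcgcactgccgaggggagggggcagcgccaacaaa
The Dnmt3l window held 6 CG dinucleotides and 1 GC box, and the Col4a1 window 37 CG dinucleotides and 1 GC box. The median count of CG dinucleotides was 20 in windows of tested genes, 17 for the higher and 15 for the lower joint genes, and 7 over all windows in the table.

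Other enzymes of DNA methylation differed by less. Dnmt3a, a de novo methyltransferase, was at 9.22, 13.9 and 13.4 RPM in 2i/L, 62.5, 36.6 and 37.0 RPM in MEKi/L and 38.3, 33.2 and 19.3 RPM in GSK3i/L. All 3 2i/L values lay below the 6 (-1.57 ± 0.25, SE, adjusted p = 7.4e-04). Dnmt3b, the second de novo methyltransferase, was at 79.9, 103 and 57.9 RPM in 2i/L and 131, 58.7 and 77.0 RPM in MEKi/L, which overlap, and 246, 167 and 120 RPM in GSK3i/L. Its contrast was -0.62 ± 0.28 (SE, adjusted p = 0.12). It stood at -0.83 with each library centred on its median gene (adjusted p = 0.043) and at -1.23 (adjusted p = 3.6e-04) with the long-minus-short measure in the fit. Uhrf1, which recruits the maintenance methyltransferase to newly replicated DNA, was at 702, 594 and 580 RPM in 2i/L, 548, 314 and 334 RPM in MEKi/L and 632, 486 and 245 RPM in GSK3i/L (0.63 ± 0.28, SE, adjusted p = 0.10). Uhrf1 passed without the first MEKi/L library (0.75, adjusted p = 0.038) or the first GSK3i/L library (0.77, adjusted p = 0.028), and its adjusted p was 1.0 with the long-minus-short measure. Of 12 tested methylation genes, 1 was higher and 2, Dnmt3l and Dnmt3a, were lower, with a median of 0.05 that turned to -0.17 with centring and -0.12 with trimmed mean scaling. Of 14 demethylation genes, 3 were higher and 1 was lower, and the joint gene among them was Gadd45a, a stress-induced factor linked to DNA repair, at -1.04 (adjusted p = 0.0015). With the measure it stood at -0.96, under the 2-fold limit.

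Among the naive pluripotency factors, 9 of 16 were higher and none was lower, with a median of 0.69 (0.44 with the long-minus-short measure, 6 higher and 1 lower). Tfcp2l1, a LIF and STAT3 target of the naive network, was at 1166, 1157 and 1250 RPM in 2i/L, 559, 297 and 346 RPM in MEKi/L, 744, 572 and 262 RPM in GSK3i/L and 57.5, 95.7 and 85.3 RPM in S/L. Each inhibitor alone lay above serum and 2i/L lay above both (1.47 ± 0.30, SE, adjusted p = 0.0041). The first library of each single-inhibitor group was its highest for Tfcp2l1, and with the long-minus-short measure in the fit the difference was 0.77 (adjusted p = 0.0066). Nr5a2, an orphan nuclear receptor, was the other joint gene of this list, at 1.06 (adjusted p = 0.0066), or 0.56 with the measure (adjusted p = 0.040). Klf4, a STAT3 target and reprogramming factor, was at 411, 387 and 389 RPM in 2i/L and between 152 and 334 RPM in the 6, outside them but below the 2-fold limit (0.98 ± 0.22, SE, adjusted p = 0.0064; 0.49 with the measure, adjusted p = 0.012). Prdm14, which represses FGF signalling and the de novo methyltransferases, was at 71.3, 54.8 and 68.0 RPM in 2i/L, 64.5, 35.8 and 39.0 RPM in MEKi/L and 24.0, 14.2 and 18.3 RPM in GSK3i/L. It was called (1.16 ± 0.22, SE, adjusted p = 0.0023) while overlapping MEKi/L, and stood at 0.81 with the measure, under the 2-fold limit. Nanog (0.26, adjusted p = 0.22), Esrrb (0.57, adjusted p = 0.14) and Pou5f1 (-0.23, adjusted p = 0.25) did not pass the test. With the measure in the fit Nanog stood at 0.47 (adjusted p = 0.014) and Esrrb at -0.04 (adjusted p = 0.92).

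Genes of the LIF and STAT3 pathway were higher in 9 of 18 tested members and lower in none, with a median of 0.63 (0.40 with the long-minus-short measure). The joint genes were Tfcp2l1, Osm, Bcl3 and Pim1. Osm, a cytokine of the LIF family, was at 27.2, 28.5 and 29.0 RPM in 2i/L, 9.96, 9.71 and 12.3 RPM in MEKi/L and 6.93, 6.41 and 6.24 RPM in GSK3i/L, with 0.0918 to 0.331 RPM in S/L. Its libraries were tightly grouped in each medium (1.76 ± 0.32, SE, adjusted p = 0.0020). Bcl3, a nuclear cofactor of NF-kB, stood at 1.38 (adjusted p = 0.0046), or 0.70 with the measure (adjusted p = 0.015), and Pim1, a STAT3-induced kinase, at 1.17 (adjusted p = 7.6e-04), or 0.96 with the measure, both then under the 2-fold limit.

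Among general pluripotency factors and factors of the formative and primed states, most members that passed the test were lower. In the general list 5 of 12 were lower and none was higher (median -0.50), with the joint genes Utf1 (-1.51), Lin28a (-1.32), Lin28b (-1.26) and Dppa2 (-1.18). LIN28A and LIN28B bind let-7 precursors and block their maturation. Lin28a was at 81.5, 104 and 66.1 RPM in 2i/L, 225, 111 and 126 RPM in MEKi/L and 441, 282 and 194 RPM in GSK3i/L (adjusted p = 0.0033). In the formative and primed list 10 of 19 were lower and 1 was higher. The median was -0.96, or -0.80 with genes of a group at 0 set to their bound and -1.58 with the long-minus-short measure. Sox3, a SOXB1 factor of early neural tissue, was at 0.0762, 0.0790 and 0.132 RPM in 2i/L, below 3 reads, at 2.09, 0.648 and 0.569 RPM in MEKi/L and at 3.39, 2.47 and 2.23 RPM in GSK3i/L. Tcf15, a marker of cells primed to leave the naive state, was at 2.90, 2.85 and 2.25 RPM in 2i/L, 6.35 to 8.19 RPM in MEKi/L and 6.80 to 16.5 RPM in GSK3i/L, with 72.1 to 74.4 RPM in S/L. Zic2 (-1.57) and Zic5 (-1.56), zinc finger factors in one cluster on chromosome 14, and Sox4 (-1.59) were also joint genes. Fgf5, the classic marker of the primed epiblast, was listed at 0 in all 2i/L libraries and had at most 1.14 RPM in any single-inhibitor library (adjusted p = 0.029). Without any one 2i/L library the adjusted p of Fgf5 was 0.078 to 0.096, and it was 0.058 with the long-minus-short measure. Sall3, a spalt-like zinc finger factor, was the member that was higher, at 1.53 (adjusted p = 0.0013).

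Targets of the pathways that the inhibitors act on were split. Of 26 genes of ERK feedback and response, 7 were lower and 1 was higher (median -0.45). The median was -0.07 relative to MEKi/L, with 3 lower and 3 higher (6.11% and 6.81% of all tested genes), and -0.82 relative to GSK3i/L, with 12 lower and 1 higher (8.02% and 19.8%). Dusp6, a phosphatase that inactivates ERK, was a joint gene, at 10.1, 7.90 and 8.07 RPM in 2i/L, 20.3, 16.4 and 12.2 RPM in MEKi/L and 73.2, 41.7 and 40.9 RPM in GSK3i/L (-1.71 ± 0.23, SE, adjusted p = 2.5e-04). Its level in 2i/L was thus also below that under MEK inhibition alone, with a difference of -0.89 (adjusted p = 0.043). Dusp5, a nuclear ERK phosphatase, was the other joint gene of the list, at -1.42 (adjusted p = 0.0017).

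Of 21 Wnt and beta-catenin targets, 9 were higher and 1 was lower (median 0.77, or 0.33 with the long-minus-short measure). The joint genes among them were Cdx1, Cdx2, Tnfrsf19 (1.23) and Apcdd1 (1.15), which were higher, and Lef1, which was lower. Lef1, a TCF-family factor that is itself a Wnt target, was at 1.22, 1.19 and 0.860 RPM in 2i/L, 5.14, 1.87 and 2.37 RPM in MEKi/L and 17.3, 14.8 and 12.6 RPM in GSK3i/L. Its direction was opposite to that of Axin2 (-2.59 ± 0.29, SE, adjusted p = 5.9e-05). Cdx1, a caudal homeobox factor, was at 8.23, 8.77 and 10.2 RPM in 2i/L, at 0.0635, 0 and 0 RPM in MEKi/L and at 7.08, 2.70 and 3.02 RPM in GSK3i/L. Cdx2 had 0.991, 1.74 and 1.39 RPM in 2i/L, was listed at 0 in MEKi/L and reached at most 0.868 RPM in GSK3i/L. It passed the filter on low values through its 2i/L libraries alone.

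Factors of the primitive streak and posterior embryo were higher in 5 of 14 tested members and lower in 2 (median 0.54), and all 5 of the joint genes among them were higher. Cdx2 was among these 5, and since it passed the filter through 2i/L alone its direction is no support. Nkx1-2, a homeobox factor of the caudal epiblast, was at 33.9, 38.6 and 33.3 RPM in 2i/L, 0 in all MEKi/L libraries and 12.5, 8.54 and 13.3 RPM in GSK3i/L. It was at least 153-fold higher in 2i/L than the value of 3 reads per library in MEKi/L, and 1.65 higher than GSK3i/L on the log2 scale (adjusted p = 9.9e-04). The Nkx1-2 model overlaps the Fgfr2 model on the same strand and the antisense model Gm16764. Gsc, the organizer homeobox factor goosecoid, showed the reverse order of inhibitors, with 14.9, 16.7 and 18.6 RPM in 2i/L, 6.98, 10.8 and 6.92 RPM in MEKi/L and 0.597, 0.403 and 0.324 RPM in GSK3i/L (3.17 ± 0.28, SE, adjusted p = 1.4e-05). Wnt3, the Wnt ligand of the streak, had 1.6, 1.66 and 2.25 RPM in 2i/L, 0.698, 1.08 and 0.948 RPM in MEKi/L and at most 0.324 RPM in GSK3i/L. For Nkx1-2, Cdx1 and Gsc the 2i/L level was therefore nearer to that under one inhibitor than to that under the other, while for S1pr1 and Dnmt3l it was about equally far from both.

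Basement membrane collagen was lower. Col4a1, an alpha chain of type IV collagen, was at 7.70, 8.22 and 7.93 RPM in 2i/L, 196, 92.1 and 88.9 RPM in MEKi/L, 62.7, 29.0 and 21.2 RPM in GSK3i/L and 18.7, 23.6 and 22.7 RPM in S/L. The 2i/L level was below that in all other media, and the MEKi/L level was the highest of them (-2.98 ± 0.31, SE, adjusted p = 4.2e-05). Col4a2, its partner chain, followed the same order, with 5.49, 5.93 and 5.42 RPM in 2i/L, 74.0, 34.5 and 34.8 RPM in MEKi/L and 38.6, 21.5 and 10.9 RPM in GSK3i/L (-2.44 ± 0.32, SE, adjusted p = 2.2e-04). The genes lie head to head on chromosome 8 and overlap by 22 bases. Lama1, the laminin alpha chain of the early basement membrane, went the other way, at 259, 288 and 335 RPM in 2i/L, 157, 72.5 and 77.5 RPM in MEKi/L and 162, 70.0 and 55.7 RPM in GSK3i/L (1.69 ± 0.31, SE, adjusted p = 0.0022). The first library was again the highest of each single-inhibitor group, and the difference was 0.88 with the long-minus-short measure. Of 14 primitive endoderm genes, the list that holds these 3, 4 were lower and 2 were higher (median -1.21). The list median was -0.22 relative to MEKi/L and -1.60 relative to GSK3i/L. Dab2, an endocytic adaptor, was lower at -1.46 (adjusted p = 0.014). The adjusted p of Dab2 was 0.056 without the first and 0.066 without the second 2i/L library.

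**Figure D3:**
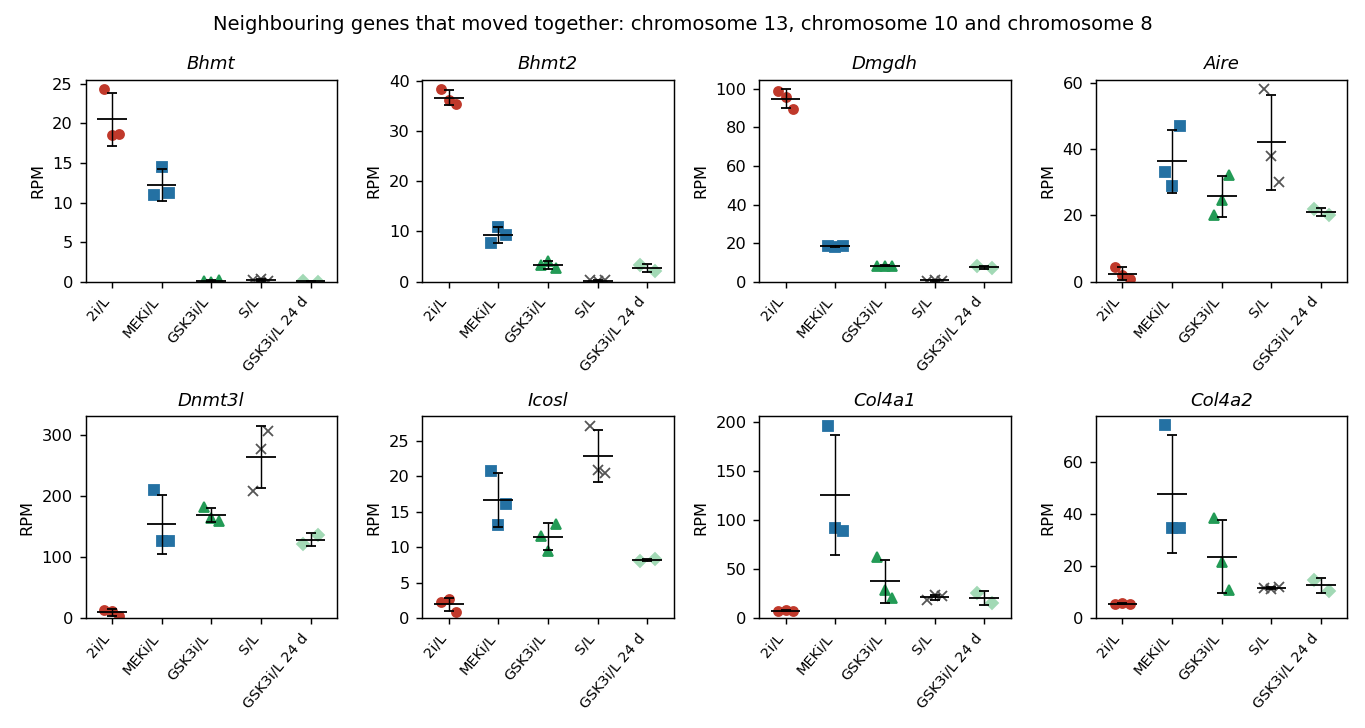
RPM of neighbouring joint genes in all 14 RNA libraries, with linear axes from 0; points are libraries, the horizontal line is the group mean and the bar its SD. Bhmt, Bhmt2 and Dmgdh of chromosome 13 were highest in 2i/L, Aire, Dnmt3l and Icosl of chromosome 10 were lowest in 2i/L, and Col4a1 and Col4a2 of chromosome 8 were lowest in 2i/L and highest in the first MEKi/L library.

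Mesenchymal and matrix genes were lower in 11 of 27 tested members and higher in 1 (median -0.85). Here the single inhibitors differed: the median was 0.34 relative to MEKi/L and -2.98 relative to GSK3i/L. Relative to GSK3i/L, 17 were lower and 2 were higher (8.02% and 19.8% of all tested genes). The joint genes were Zeb2, Twist1, Thy1 and Loxl2. Twist1, a mesenchymal helix-loop-helix factor, was at 0.381, 0.474 and 0.727 RPM in 2i/L, 1.21, 1.37 and 0.948 RPM in MEKi/L and 4.58, 4.16 and 3.41 RPM in GSK3i/L (-2.09 ± 0.32, SE, adjusted p = 6.5e-04). Loxl2, a collagen-crosslinking oxidase, stood at -1.98 (adjusted p = 6.5e-05), and Thy1, a surface glycoprotein that is also a fibroblast marker, at -1.73 (adjusted p = 0.0010). Zeb2 had at most 0.229 RPM in 2i/L and 1.41 to 2.97 RPM in GSK3i/L. Of 9 tested fibroblast and feeder markers, 3 were lower in the averaged contrast and none was higher (median -0.84). Here too the single inhibitors differed. The median was 1.44 relative to MEKi/L, with 5 higher and 1 lower (6.81% and 6.11% of all tested genes). Relative to GSK3i/L it was -3.12, with 7 lower and none higher (8.02% and 19.8%). Col3a1 averaged 86.7 RPM in GSK3i/L, 1.84 RPM in 2i/L and 0.143 RPM in MEKi/L, and was listed at 0 at day 24 of GSK3i/L. In these bulk libraries, fewer cells of a type and less RNA per cell cannot be told apart, and the part of such cells in the results was not tested.

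Several lower joint genes are known to respond to low oxygen. Bnip3 and Ndufa4l2 were among the 12 with the widest separation, and Egln3 was a list member. Bnip3, a mitophagy receptor, was at 14.3, 6.09 and 3.77 RPM in 2i/L, 35.5, 57.3 and 62.7 RPM in MEKi/L, 29.5, 93.2 and 107 RPM in GSK3i/L and 384, 267 and 200 RPM in S/L (-3.07 ± 0.43, SE, adjusted p = 3.4e-04). Egln3, an oxygen-sensing prolyl hydroxylase, was at 1.45, 1.03 and 1.79 RPM in 2i/L and 3.98 to 13.2 RPM in the 6 (-2.49 ± 0.24, SE, adjusted p = 2.3e-05). Ndufa4l2, a hypoxia-induced paralog of a respiratory chain subunit, was at 2.74, 1.03 and 0.331 RPM in 2i/L and 2.94 to 10.4 RPM in the 6 (-2.38 ± 0.53, SE, adjusted p = 0.0066). Ndufa4l2 overlaps Shmt2 on the other strand. In the glycolysis and hypoxia list as a whole, 6 of 25 were lower and 2 were higher, with a median of -0.14 (-0.29 with the long-minus-short measure). Hk1, the hexokinase of most cells, was a joint gene in the other direction (1.28, adjusted p = 0.013), and stood at 0.59 (adjusted p = 0.10) with the long-minus-short measure. Without the second 2i/L library the adjusted p of Hk1 was 0.057.

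The other leading lower genes were varied in function. Emb, a chaperone of lactate transporters, was at 4.42, 7.35 and 7.93 RPM in 2i/L, 46.5, 33.7 and 29.0 RPM in MEKi/L, 71.3, 57.4 and 76.1 RPM in GSK3i/L and 126 to 164 RPM in S/L (-2.95 ± 0.20, SE, adjusted p = 1.7e-06). Slc27a2, which activates very long chain fatty acids, was at 1.22, 1.11 and 1.92 RPM in 2i/L and 7.16 to 20.4 RPM in the 6 (-3.20 ± 0.29, SE, adjusted p = 1.5e-05). Crmp1, a collapsin response mediator of growing axons, was at 4.88, 6.01 and 2.18 RPM in 2i/L and 24.0 to 84.0 RPM in the 6 (-3.37 ± 0.30, SE, adjusted p = 1.4e-05). Each of these had low levels in all 3 2i/L libraries. Calca, which encodes calcitonin and its related peptide, was at 3.28, 6.01 and 5.82 RPM in 2i/L, 17.8 to 94.4 RPM in the 6 and 136 and 119 RPM at day 24 of GSK3i/L. Enox1, a surface NADH oxidase, stood at -4.21, with a first 2i/L library (5.03 RPM) well above the other 2 (0.790 and 0.860 RPM). Wdr86 (-2.67) and S100a6, a calcium-binding protein (-2.27), completed the group.

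Imprinted genes moved both ways. Of 33 tested, 3 were higher and 5 were lower, beside 15.9% and 8.25% of all tested genes (median -0.39, or -0.16 with the long-minus-short measure). Beside Plagl1, Igf2r, the scavenger receptor for IGF2, was higher at 1.18 (adjusted p = 0.021), and it stood at 0.34 (adjusted p = 0.18) with the long-minus-short measure. The adjusted p of Igf2r was 0.059 without 2i/L library 2, 0.11 without 2i/L library 3 and 0.050 without MEKi/L library 3. Mest, a hydrolase of mesoderm, was at 18.5, 16.8 and 11.1 RPM in 2i/L, 38.8, 21.4 and 21.7 RPM in MEKi/L and 98.3, 85.3 and 94.5 RPM in GSK3i/L (-1.71 ± 0.20, SE, adjusted p = 8.8e-05). Cdkn1c, a cyclin-dependent kinase inhibitor, was at 3.73, 4.19 and 4.36 RPM in 2i/L and 8.96 to 16.3 RPM in the 6, with 86.2 to 103 RPM in S/L (-1.57 ± 0.21, SE, adjusted p = 2.2e-04). Mest overlaps Copg2 and Igf2r overlaps Airn, each on the other strand. Germline genes, many of them known to be silenced by promoter methylation, were lower in 5 of 23 tested and higher in 1 (median -0.34, or -0.11 with the measure). Their median was -0.74 relative to MEKi/L, with 10 lower and none higher (6.11% and 6.81% of all tested genes). Relative to GSK3i/L it was 0.04, with 4 lower and 4 higher (8.02% and 19.8%). The joint genes were Dnd1, an RNA-binding protein of germ cells (-1.23, adjusted p = 2.8e-04), and Taf7l, a testis paralog of a TFIID subunit (-1.21, adjusted p = 0.0052).

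**Figure D4:**
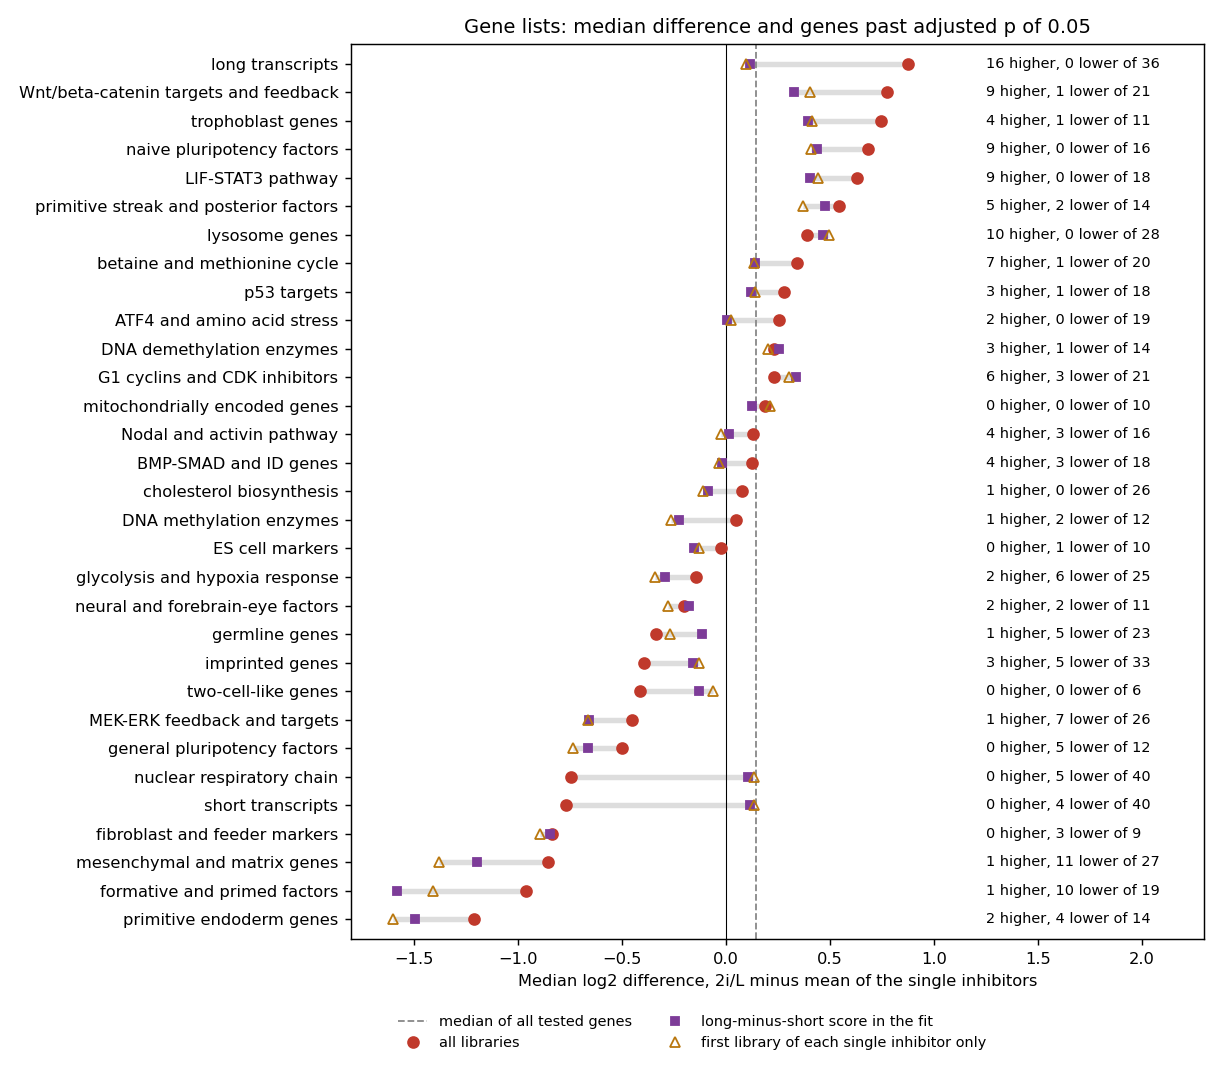
Median log2 difference between 2i/L and the mean of the single inhibitors for 31 gene lists, in all libraries (circles), with the long-minus-short measure in the fit (squares) and with the first MEKi/L and GSK3i/L libraries alone (triangles); the dashed line is the median of all tested genes, and the text at the right counts members at an adjusted p under 0.05. Primitive endoderm, formative and mesenchymal genes had medians of -0.85 or lower and naive, LIF and Wnt genes medians of 0.33 or higher in all 3 readings. The nuclear respiratory chain and short transcripts, lists that may share members, moved from -0.74 and -0.77 to 0.11 with the measure and to 0.14 with the first libraries.

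Joint genes were next compared with the 5 libraries outside the contrast. Those libraries had still entered the filter and the spread of the fit. With only the 9 libraries fitted, 498 of the 512 and 481 of the 539 were still called. Positions were taken against the same 6 values that the rule used, so the shares below are no independent support. In S/L, 235 of the 512 higher joint genes had all 3 values below the 6 single-inhibitor values (45.9%, beside 16.2% of all tested genes), 269 lay among them and 8 above. Of the 539 lower joint genes, 191 had all S/L values above the 6 (35.4%, beside 11.7% of all tested genes), 329 lay among them and 19 below. The median difference between S/L and the mean of the single inhibitors was -1.07 for the higher and 0.88 for the lower joint genes. S/L also differs in its basal medium and serum, and its long-minus-short measure was -2.69 ± 0.23 (SD, n = 3), farther from 2i/L than any single-inhibitor group at 8 days.

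Read as an order of levels, 183 of the 512 higher joint genes had both single-inhibitor groups at least 2-fold above S/L, 164 had one, and 165 had neither. Of the 539 lower joint genes, 173 had both groups at least 2-fold below S/L, 147 had one, and 219 had neither. The same order was not counted over all tested genes, so these counts do not set the joint genes apart from other genes. Dmgdh and Tfcp2l1 are examples of the stepwise order. Dnmt3l, whose single-inhibitor means were within 2-fold of serum, is an example of the last kind, as is Pdzrn3, whose S/L values of 0.892 to 1.40 RPM lay among the 6.

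At day 24 of GSK3i/L, 158 of the 512 higher joint genes had both values below the 6 single-inhibitor values of day 8 (30.9%, beside 23.8% of all tested genes). Of the 539 lower joint genes, 71 had both values above the 6 (13.2%, beside 11.2% of all tested genes) and 143 had both below (26.5%, beside 23.8%). Dnmt3l was at 121 and 137 RPM at day 24, Dmgdh at 8.05 and 6.96 RPM and S1pr1 at 0.304 and 0.264 RPM. For these 3 genes neither day 24 library approached the 2i/L level. Zic2, at 3.57 and 3.79 RPM, and Dusp5, at 0.684 and 0.881 RPM, were by contrast below their 2i/L values at day 24.

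**Figure D5:**
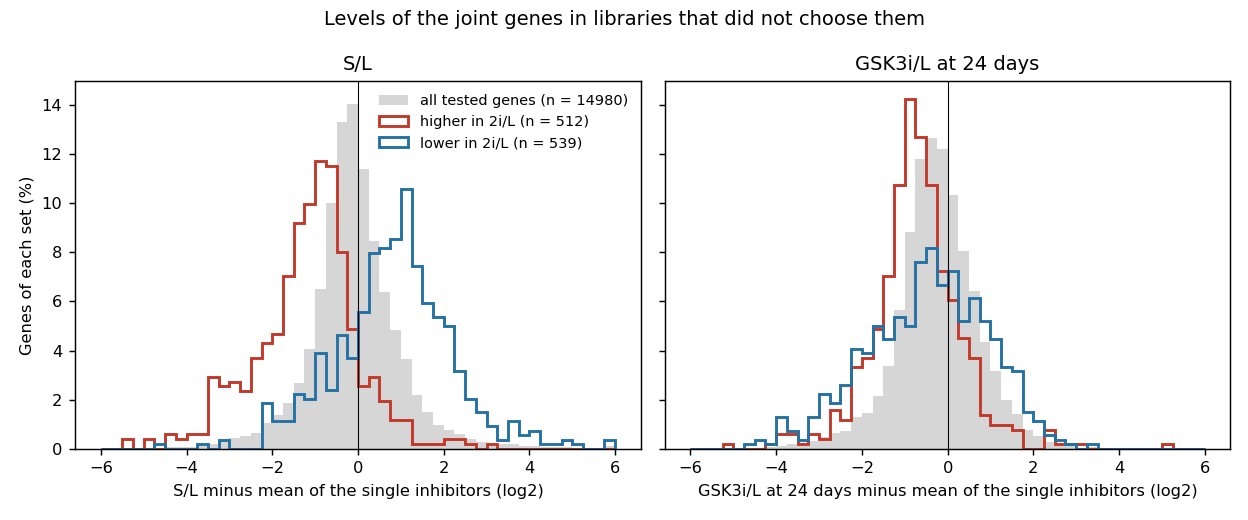
Distribution of the log2 difference from the mean of the single inhibitors in S/L (left) and in GSK3i/L at day 24 (right), as the percentage of each gene set in bins of 0.25; grey is all tested genes, red the 512 higher and blue the 539 lower joint genes, with values beyond 6 drawn at 6. In S/L the red set lies to the left, with a median of -1.07, and the blue set to the right, with a median of 0.88; at day 24 both sets lie to the left, with medians of -0.73 and -0.41.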

How the data were processed

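RNA was sequenced in 14 libraries as 50-base single-end reads from poly(A)-selected, strand-specific libraries, per the labels' protocols. HISAT2, Trim Galore 0.6.5, Bismark 0.22.3 and the build GRCm38 are listed, without roles, per the submitters' processing notes. The authors deposited one table of log2 RPM values per gene, a SeqMonk gene table by its name. In the 2i/L, MEKi/L and 24-day columns at least 99.96% of values came out as whole reads (tolerance 0.02 reads), and 0 reads stood at the value of 0.9 read; the S/L and GSK3i/L columns of day 8 held no whole reads and shared one distribution of values, by a step that is not stated. How the reads were counted is not given in the sources used here.

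Values printed as RPM were converted back, with 0 reads as 0. Genes with 0.5 RPM in at least 3 libraries were tested on the log2 scale, with no further pseudocount, with limma 3.58.1 (empirical Bayes with trend and robust options, R 4.3.3), in one fit of 14 libraries in 5 groups, and p-values were adjusted by Benjamini-Hochberg over 14980 genes. limma was tested on simulated data first. RPM is not scaled by gene length, so levels are compared within a gene only. The members, lists and rules were chosen with earlier results of these data known. Named genes were the 12 joint genes in each direction with a mean of at least 5 RPM in 2i/L, or in both single-inhibitor groups, and the largest of the smaller of their log2 differences from MEKi/L and GSK3i/L, leaving out unnamed gene models; 12 pathway genes in any case (Dnmt3a, Dnmt3b, Dnmt3l, Uhrf1, Prdm14, Tfcp2l1, Esrrb, Nanog, Klf4, Pou5f1, Spry4 and Axin2); and joint genes on the 31 lists. Genes at the edge of the rule, overlapping genes and cell type markers are named as such. The alternatives were scaling, filters, pseudocount, fold limit, fewer libraries, a replicate block, and the long-minus-short measure; representing the single inhibitors by their first libraries alone was chosen after seeing the data.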

Additional observations from a re-analysis of the deposited data

How the results depend on the processing

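Named genes that passed the test kept their direction under every alternative run, and the 12 leading genes in each direction were called under every one. Some medians of gene lists and some genes that had not passed the test changed direction. Counts of calls moved more. With centring the larger direction turned from higher to lower against GSK3i/L and for genes outside all single-inhibitor values. Trimmed mean scaling turned it against GSK3i/L too. In the averaged contrast lower calls were the more numerous. Higher calls were the more numerous at 1.5-fold (1881 and 1210), on log2(RPM + 0.5) (637 and 603) and without the first 2i/L library (664 and 627). Genes higher in 2i/L than the mean of the single inhibitors numbered 740, and 443 with centring, 492 with trimmed mean scaling, 437 with the long-minus-short measure, 412 with the measure and a replicate block, 1881 at 1.5-fold, 1219 without both first single-inhibitor libraries and 408 with those alone. Lower genes numbered 989, and 603 on log2(RPM + 0.5), 1589 without both first libraries and 596 with those alone. Against MEKi/L, 479 were higher and 793 lower, with 912 and 1517 without the first libraries and 231 and 414 with those alone. Against GSK3i/L, 1474 were higher and 987 lower; the higher count was 844 with centring, 982 with trimmed mean scaling, 942 with the measure, 907 with the measure and block and 854 with the first libraries alone, and the lower count 1577 with centring, 1567 without the first libraries and 636 with those alone. Tested genes above all single-inhibitor values numbered 2050, and 997 with centring, 1351 with quantile normalization, 1296 with trimmed mean scaling, 4304 without the first libraries and 3595 with those alone; those below numbered 838, and 1570, 1276 with trimmed mean scaling, 2368 and 2054. These last counts rise partly because fewer values have to be exceeded.

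Leaving out 1 library at a time gave 526 to 975 higher and 627 to 1320 lower genes, 297 to 868 and 466 to 1323 against MEKi/L, 1104 to 1934 and 738 to 1498 against GSK3i/L, and 2114 to 3399 above and 899 to 1191 below. The labels give the groups the same replicate numbers, but same-number deviations correlated at -0.0072 to 0.073 between 2i/L and MEKi/L and at 0.018 to 0.12 between 2i/L and GSK3i/L, so the numbers were not taken as pairs; between MEKi/L and GSK3i/L they correlated at 0.12 to 0.67, and 6 of 9 libraries correlated best with their own number. With a replicate block, 737 were higher and 1037 lower. The depth of GSK3i/L and S/L is unknown, and levels under 3 reads (0.190 to 0.284 RPM in the 2i/L and MEKi/L libraries) set no fold.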

Other observations

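Lysosome genes, none of which lead the lists above, were higher in 10 of 28 tested members and lower in none (15.9% and 8.25% of all tested genes), with a median log2 difference of 0.39 that was 0.47 with the long-minus-short measure and 0.50 with the first single-inhibitor libraries alone, but 0.17 with centring and 0.22 with trimmed mean scaling. The joint genes among them were Hexa, the alpha subunit of beta-hexosaminidase, and Gaa, the lysosomal alpha-glucosidase. Hexa was at 208, 163 and 262 RPM in 2i/L, 98, 104 and 98.7 RPM in MEKi/L, 70.8, 114 and 101 RPM in GSK3i/L and 38.7 to 42.4 RPM in S/L (1.1 ± 0.18, SE, adjusted p = 9.4e-04 by limma). Gaa was at 143, 160 and 182 RPM in 2i/L and 47.9 to 94.6 RPM in the 6 single-inhibitor libraries (1.19 ± 0.25, SE, adjusted p = 0.0047 by limma). With the measure Gaa stood at 0.97, under the 2-fold limit, and with the measure and a replicate block at 0.70 (adjusted p = 0.062). Of 21 G1 cyclins and CDK inhibitors, 6 were higher and 3 were lower (median 0.23, or 0.01 with centring), among them Ccnd3, the D-type cyclin D3, at 283, 258 and 260 RPM in 2i/L, 166, 108 and 126 RPM in MEKi/L and 165, 117 and 72.6 RPM in GSK3i/L (1.14, or 0.65 with the measure). Ccnd3 overlaps Bysl on the other strand.

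In the BMP and SMAD list, 4 of 18 were higher and 3 lower, and in the Nodal and activin list 4 of 16 were higher and 3 lower; both medians were 0.13 and turned below 0 with each of the 3 other scalings. Smad9, a receptor-activated SMAD of the BMP branch, was at 10.8, 11.0 and 13.3 RPM in 2i/L, 2.56 to 3.87 RPM in MEKi/L, 5.10 to 6.59 RPM in GSK3i/L and 0.0918 to 0.142 RPM in S/L (1.45). Trophoblast genes were higher in 4 of 11 and lower in 1 (median 0.75, or 0.39 with the measure), with Cdx2, which passed the filter through 2i/L alone, as the joint gene. Neural and forebrain factors were higher in 2 of 11 and lower in 2, with a median of -0.20 that was 0.21 with quantile normalization. Their median was -0.60 relative to MEKi/L and 1.22 relative to GSK3i/L. Targets of p53 were higher in 3 of 18 and lower in 1, and ATF4 and amino acid stress genes higher in 2 of 19 and lower in none. Over all tested genes the shares were 15.9% higher and 8.25% lower, so these counts do not stand out as higher. Cholesterol synthesis had 1 of 26 higher and none lower, with a median of 0.08 that fell below 0 with each other scaling. None of 10 mitochondrially encoded genes and none of 6 tested genes of the two-cell-like state passed the test.

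Further joint genes lay next to each other. Chosen after their values were seen, Crmp1, Evc and Evc2 on chromosome 5 were all lower (-3.37, -1.20 and -1.01), and Tnni1 and Lad1 on chromosome 1 were both higher (3.62 and 2.57). Crmp1 and Evc overlap by 3035 bases on opposite strands, so without a stated strand rule their reads there cannot be told apart.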
